A study of Mus musculus with 6 samples.

Results

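The genes described here encode the proteins of the cytosolic ribosome. They were taken as every protein-coding mouse gene with a symbol of the Rpl or Rps type, including the stalk genes Rplp0 to Rplp2 and Rpsa, without the S6 kinases (Rps6k), Rps19bp and pseudogenes named -ps. The rule found 85 of the 41214 genes in the table, 52 for the large and 33 for the small subunit, and used no measured value. RNA was sequenced from CD31+ GFP+ endothelial cells sorted by flow cytometry from hearts of mouse embryos, with tamoxifen given on embryonic day E13.5 and hearts collected on E14.5. Embryos of every group came from crosses with the Pdgfb-iCreERT2-IRES-EGFP transgene, which carries a tamoxifen-inducible Cre and green fluorescent protein under endothelial Pdgfb control. The KO group (genotype Dll4-/-) came from Dll4 flox/flox females and carried 2 floxed alleles of Dll4, the gene of a Notch ligand. The het group (Dll4+/-) had 1 floxed allele and the wt group (WT) had none. Each group had 2 libraries, KO replicates 1 and 2, het replicates 2 and 3, and wt replicates 4 and 5. The labels speak of several litters but do not say how many embryos were pooled for a library, so p-values measure the spread between these samples. The series title speaks of a suppression of cell growth during arterialization, and the ribosomal proteins are part of a cell's growth machinery.

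Ribosomal proteins are assembled with ribosomal RNA, mostly in the nucleolus, the small subunit decoding the messenger and the large subunit forming peptide bonds. Their messengers start with a run of pyrimidines, the TOP motif, through which mTORC1 and the binding protein LARP1 adjust translation to nutrients and growth signals. Mammalian genomes hold many processed pseudogenes of these genes, and reads from them are hard to place.

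Library totals were 6501798 and 4988014 expected counts in KO, 1537908 and 3165552 in het, and 2521534 and 1732136 in wt. Dll4 stood at 19.4 and 13.7 CPM (counts scaled to a common library total) in KO, 81.2 and 85.9 CPM in het, and 196 and 183 CPM in wt. Pecam1, the gene of CD31, averaged 868 ± 33.9 CPM in KO, 734 ± 25.7 CPM in het and 826 ± 11.1 CPM in wt (SD, n = 2 each). It is 1 of 12 endothelial markers, which moved unequally and are described below. Rows of Lars2, mitochondrial ribosomal RNA and small structural RNAs took 0.159% to 0.167% of the counts in KO, 19.2% to 19.7% in het and 17.9% to 19.2% in wt. This difference in library makeup followed the KO group, and its part in the results cannot be told apart from genotype. All CPM values use TMM-scaled library sizes, and a gene is said to have risen or fallen where its p from edgeR's quasi-likelihood test, after Benjamini-Hochberg adjustment across all 10952 tested genes, was under 0.05.

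Relative to the bulk of other genes, ribosomal protein messengers were lower in endothelial cells of KO hearts than of wt hearts, while their median log2 fold change was 0.01 when libraries were scaled by total count alone. Of the 80 members that passed the filter on low counts, 41 fell and 3 rose in KO against wt. Over all genes tested, 32% passed, of which lower genes made up 17.3% and higher genes 14.7% of those tested. The median log2 fold change of the tested members was -0.36, beside -0.02 for all genes tested. In 52 members both KO libraries lay under both wt libraries, and in 7 both lay above, where 34.5% and 33.2% of all genes did so. In the small subunit 19 of 31 tested genes fell and 1 rose, with a median of -0.40, and in the large subunit 22 of 49 fell and 2 rose, with a median of -0.25. In a bulk sample, fewer cells with high levels and less messenger per cell cannot be told apart. With library size as the only normalization the median of all genes moved to 0.35, and 15 members fell and 16 rose, where 9.44% of all genes fell and 35.4% rose. The members' median lay 0.34 below that of all genes under either scaling. Without wt replicate 5, 26 members fell.

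**Figure D1:**
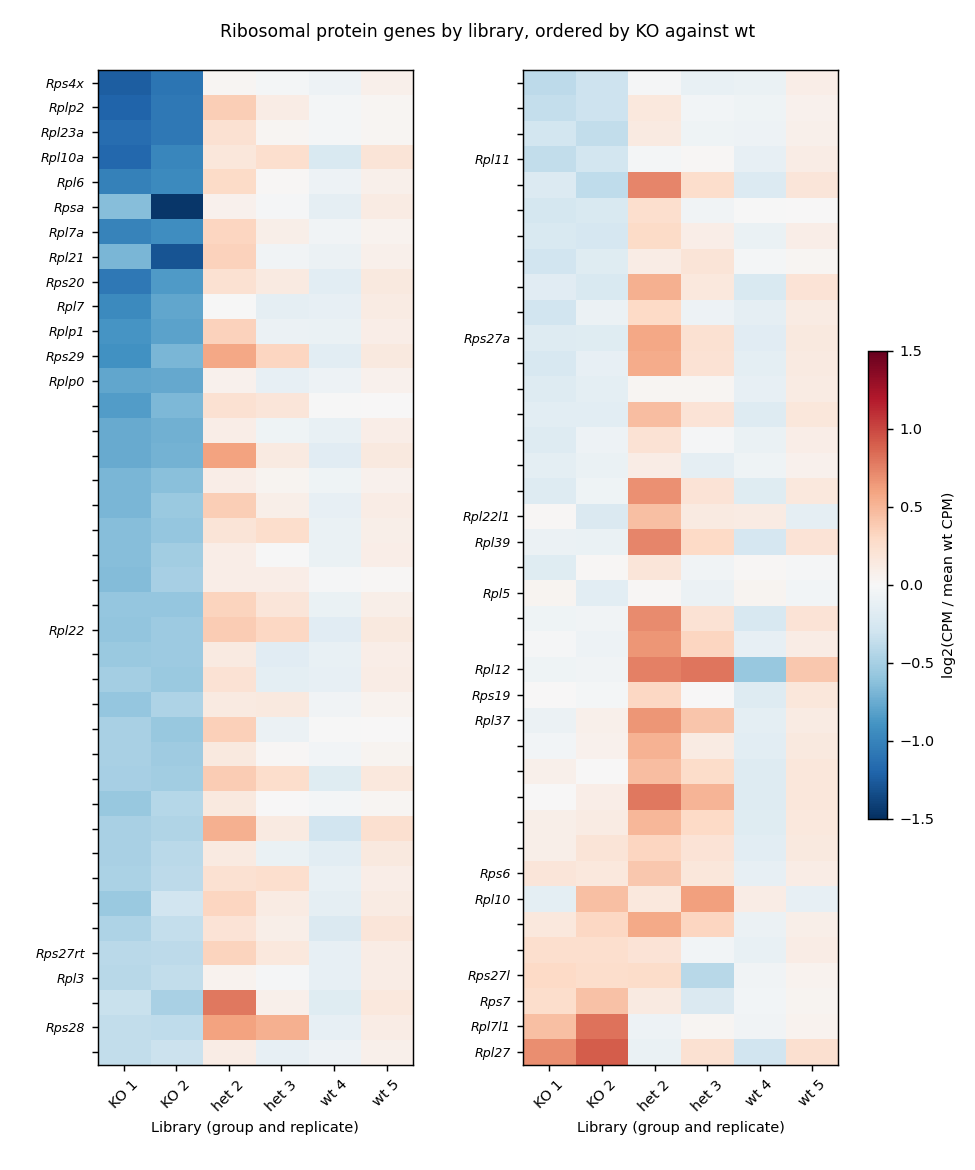
Level of 79 tested ribosomal protein genes in each library, as log2 of its TMM-scaled CPM over the mean CPM of the wt libraries, ordered from the most negative KO against wt fold change (top left) to the most positive (bottom right), with labels for genes named in the text. KO libraries are blue for most genes in the left panel, het replicate 2 is red for most genes, and Rps7, Rpl7l1 and Rpl27 at the bottom right are red in KO.

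The deepest falls were shared between the subunits. Rps4x, an X-linked small-subunit gene at chrX:102184941-102189394 (GRCm38), stood at 316 and 348 CPM in KO, 758 and 728 CPM in het, and 705 and 782 CPM in wt. The KO libraries lay far under the other groups, which overlapped (log2 fold change -1.16 ± 0.10 (SE), adjusted p = 9.31e-09 in KO against wt, 2.24-fold lower). Rps20, also of the small subunit, stood at 155 and 182 CPM in KO, against 292 and 361 CPM in wt (log2 fold change -0.95 ± 0.12 (SE), adjusted p = 2.36e-06). Of the 4 X-linked members, Rps4x, Rpl10, Rpl36a and Rpl39, Rps4x fell. The level of the X-inactivation RNA Xist also differed between libraries, at 30.1 and 22.2 CPM in KO, 279 and 229 CPM in het, and 62.5 and 110.1 CPM in wt, and its part was not tested.

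Among large-subunit genes the lowest fold changes belonged to Rplp2, Rpl23a and Rpl10a. Rplp2, at chr7:141447370-141451585, encodes an acidic protein of the stalk that recruits elongation factors, and stood at 156 and 171 CPM in KO, 464 and 388 CPM in het, and 353 and 366 CPM in wt. KO libraries were lowest and het libraries highest (log2 fold change -1.14 ± 0.11 (SE), adjusted p = 7.19e-08 in KO against wt, 2.2-fold lower). Rpl23a, at chr11:78180932-78183584, lies at the exit of the peptide tunnel and had 268 and 281 CPM in KO, 691 and 603 CPM in het, and 578 and 604 CPM in wt. Het and wt overlapped and KO lay under both (log2 fold change -1.11 ± 0.10 (SE), adjusted p = 2.39e-08 in KO against wt). Rpl10a, a large-subunit protein whose gene lies at chr17:28328471-28331033, stood at 173 and 199 CPM in KO, 442 and 467 CPM in het, and 336 and 449 CPM in wt. The KO libraries were again apart from the others (log2 fold change -1.07 ± 0.12 (SE), adjusted p = 4.62e-06 in KO against wt). Rpl6 and Rpl7a, of the same subunit, followed. Rpl6 had 338 and 352 CPM in KO, against 649.8 and 719 CPM in wt (log2 fold change -0.99 ± 0.10 (SE), adjusted p = 2.46e-07), and Rpl7a had 209.9 and 221 CPM in KO, against 405 and 434 CPM in wt (log2 fold change -0.96 ± 0.10 (SE), adjusted p = 4.39e-07). Rps4x, Rps20, Rplp2, Rpl23a, Rpl10a, Rpl6 and Rpl7a were among 15 members that fell under every one of the 17 alternative settings tried, library size alone included.

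The other stalk proteins fell with Rplp2. Rplp1, its partner in the stalk dimer, stood at 165 and 175 CPM in KO, against 284 and 327 CPM in wt (log2 fold change -0.84 ± 0.13 (SE), adjusted p = 6.37e-05). Rplp0, which anchors the dimers to the ribosome, stood at 724 and 729 CPM in KO, against 1184 and 1304 CPM in wt (log2 fold change -0.77 ± 0.09 (SE), adjusted p = 1.70e-06). Rpl12, at the base of the stalk, is described below with its copies.

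Proteins with known roles outside translation moved unequally. Rpl11, which with Rpl5 can bind and inhibit Mdm2, stood at 205 and 219.5 CPM in KO, against 244 and 287 CPM in wt and fell (log2 fold change -0.32 ± 0.11 (SE), adjusted p = 0.0274), a call lost with library size alone (log2 fold change 0.05) and without either KO replicate or wt replicate 5 (adjusted p = 0.194, 0.0708 and 0.328 by edgeR). It was also lost with no filter on low counts (0.0776), with DESeq2 (0.125) and after thinning to the smallest total (0.0506). Rps6, the substrate of the S6 kinases, stood at 556 and 549 CPM in KO, against 450.4 and 533 CPM in wt. Both KO values lay above both wt values, without passing the test (log2 fold change 0.17 ± 0.10 (SE), adjusted p = 0.229). With library size alone it passed, at a log2 fold change of 0.53, as did Rps27l (0.64), Rps19 (0.36) and Rpl37 (0.37), described below. Rps27a, which is made as a fusion with ubiquitin, stood at 223 and 225 CPM in KO, against 227 and 282 CPM in wt and did not pass (log2 fold change -0.18 ± 0.12 (SE), adjusted p = 0.293). Rps19, mutated in Diamond-Blackfan anaemia in humans, stood at 402 and 392 CPM in KO, against 349.8 and 449.9 CPM in wt, and the groups overlapped (log2 fold change -0.01 ± 0.12 (SE), adjusted p = 0.976). Rpl37, a large-subunit protein, was as near to 0, at 174 and 195 CPM in KO, against 167 and 202 CPM in wt (log2 fold change 0.01 ± 0.12 (SE), adjusted p = 0.971).

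Paralogs of core genes did not follow the falls. Rpl7l1, at chr17:46773907-46782672, encodes a relative of Rpl7 and stood at 162 and 207 CPM in KO, 112 and 121 CPM in het, and 114 and 122 CPM in wt. Both KO libraries were above all others (log2 fold change 0.64 ± 0.13 (SE), adjusted p = 0.000809 in KO against wt, 1.56-fold higher). Rpl7 itself, a core large-subunit gene, fell, at 439 and 493 CPM in KO, against 777 and 921 CPM in wt (log2 fold change -0.86 ± 0.10 (SE), adjusted p = 1.39e-06). Rpl22l1, the paralog of Rpl22, had 46.9 and 39.9 CPM in KO, against 50.5 and 42.4 CPM in wt and overlapped between groups (log2 fold change -0.11 ± 0.18 (SE), adjusted p = 0.703). Rpl22 fell, at 66.1 and 68.4 CPM in KO, against 88.6 and 110.1 CPM in wt (log2 fold change -0.55 ± 0.14 (SE), adjusted p = 0.00479), but not with library size alone (-0.19) or when wt replicate 5 was left out (-0.39, adjusted p = 0.12). Rps27l, whose human counterpart is a p53 target, had 124 and 121 CPM in KO, against 97.2 and 105 CPM in wt (log2 fold change 0.28 ± 0.17 (SE), adjusted p = 0.236). The copies Rpl3l, known from muscle, and Rpl39l, known from testis, had 0 to 3 counts per library and Rpl10l had 0, so these 3 were not tested. Of their core genes, Rpl3 fell (log2 fold change -0.39, adjusted p = 0.00355, but 0.846 with library size alone and 0.107 without wt replicate 5), and Rpl39 (log2 fold change -0.08, adjusted p = 0.749) and Rpl10 did not pass.

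Many members shared their reads with near-identical copies. Rows whose transcripts matched a member's coding sequence at 90% identity or more over at least 80% of its length existed for 78 members. Copy rows held counts for 63 members, over 5% of the summed counts for 16 and over 50% for 6. RSEM divides such reads by its estimates, so a gene's own row can move while the sum of gene and copies does not. Copy rows were also added to each member, an alternative chosen after seeing the data. In KO against wt 50 of the 81 tested sums fell and 1 rose. The median of the sums was -0.40, beside -0.02 for all genes in that fit. Without copies added, 17.3% of all genes fell and 14.7% rose. The 41 members that fell on their own row fell as sums too. The 8 further falls were Rpl5, Rpl10, Rpl12, Rpl17, Rpl19, Rpl21, Rps12 and Rpsa, several of them named here after their values were seen.

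Of the 3 rises, that of Rpl7l1 held with copies added, since its copy rows held no counts (log2 fold change 0.64 ± 0.13 (SE), adjusted p = 0.00075). Rps7, a small-subunit gene at chr12:28630854-28635953, stood on its own row at 240.1 and 271 CPM in KO, 219 and 171 CPM in het, and 194 and 204 CPM in wt (log2 fold change 0.36 ± 0.12 (SE), adjusted p = 0.0258 in KO against wt). That call was lost without KO replicate 2 (adjusted p = 0.208), wt replicate 4 (0.145) or wt replicate 5 (0.0884), with DESeq2 (0.0545) and after thinning (0.0566). Its copy Gm6472, a transcribed processed pseudogene on chromosome X, differs from the 582 coding bases of Rps7 at 3 positions. Coding bases 26 to 85 of Rps7 and the matching stretch of the pseudogene, from GENCODE M21 transcripts, are shown because they show how few bases tell the rows apart, with the 2 differing bases in capitals.
Rps7: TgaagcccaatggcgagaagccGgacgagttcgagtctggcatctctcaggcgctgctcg
Gm6472: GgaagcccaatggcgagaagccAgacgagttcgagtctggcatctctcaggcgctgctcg

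The copy row held 5.6% and 7.42% in KO, 47.4% and 52.9% in het, and 37.2% and 44.9% in wt of the summed reads of Rps7. The sum stood at 254 and 291 CPM in KO, 413 and 362 CPM in het, and 308 and 370.1 CPM in wt. KO libraries thus had the highest own row and the lowest sum, and the sum fell (log2 fold change -0.31 ± 0.11 (SE), adjusted p = 0.0371). Rpl27, a large-subunit gene at chr11:101442298-101445529, stood on its own row at 90.4 and 105 CPM in KO, 52.0 and 64.9 CPM in het, and 45.4 and 65.8 CPM in wt (log2 fold change 0.83 ± 0.18 (SE), adjusted p = 0.00102 in KO against wt, and adjusted p = 0.062 without wt replicate 4). Its copies held 57% and 56.8% of the reads in KO, 77.5% and 68.2% in het, and 73.2% and 71.0% in wt. The sums overlapped between KO and wt and did not pass (log2 fold change 0.20 ± 0.13 (SE), adjusted p = 0.27).

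Rpl10, a large-subunit gene whose protein lies near the peptidyl transferase site, did not pass on its own row but fell as a sum. Its own row had 135 and 204 CPM in KO, 167 and 228 CPM in het, and 161 and 137 CPM in wt, where KO overlapped with both other groups and both het values lay above both wt values (log2 fold change 0.17 ± 0.25 (SE), adjusted p = 0.668 in KO against wt). With its copies, mainly Rpl10-ps3 with an identical coding sequence, the sum stood at 403 and 431 CPM in KO, 727 and 751 CPM in het, and 742 and 811 CPM in wt. Both KO sums lay far under the others (log2 fold change -0.90 ± 0.09 (SE), adjusted p = 1.89e-07). For Rpl5, 92.5% of all reads were listed under a pseudogene identical over its 891 coding bases, and the own row differed little between libraries, at 36.2 and 31.6 CPM in KO, 35.6 and 33.2 CPM in het, and 36.4 and 34.2 CPM in wt. The sum stood at 410.1 and 382 CPM in KO, 613 and 521 CPM in het, and 529.8 and 612 CPM in wt and fell (log2 fold change -0.53 ± 0.10 (SE), adjusted p = 0.000449). Rpl12 stood at 24.2 and 24.4 CPM in KO, against 17.1 and 33.5 CPM in wt on its own row, and copies held 87.3% of its reads. The sum fell (log2 fold change -0.48 ± 0.14 (SE), adjusted p = 0.0149).

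For Rpsa and Rpl21, KO replicate 2 stood apart on the own row. Rpsa, the small-subunit protein also known as laminin receptor, had 486 and 275 CPM in KO, 789 and 745 CPM in het, and 690.1 and 819 CPM in wt, and copies held 32.8% of its reads in KO replicate 2 but at most 1.11% elsewhere. Its fall did not pass on the own row (log2 fold change -0.98 ± 0.33 (SE), adjusted p = 0.121) and passed as a sum (log2 fold change -0.76 ± 0.10 (SE), adjusted p = 1.06e-05). The own row also passed without KO replicate 1 (log2 fold change -1.45) or without KO replicate 2 (-0.63). Rpl21 had 41.9% of its reads in copies in KO replicate 2, 11.8% in het replicate 3 and at most 1.58% elsewhere. Its own row gave a log2 fold change -0.95 ± 0.26 (SE), adjusted p = 0.0506, and its sum a log2 fold change -0.60 ± 0.11 (SE), adjusted p = 0.000199. Rplp0 fell either way, with a smaller change as a sum (log2 fold change -0.49 ± 0.09 (SE), adjusted p = 0.000183), since its copies held 17.3% and 18.4% in KO, 0.823% and 6.49% in het, and 0% and 0.0485% in wt.

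Rps12 and Rps27 were listed at 0 in every library although every cell needs their proteins. All reads matching Rps12 were listed under copies, and that sum stood at 70.3 and 64.4 CPM in KO, 301 and 193 CPM in het, and 147 and 197 CPM in wt (log2 fold change -1.34 ± 0.24 (SE), adjusted p = 0.00486). The coding sequence of Rps27 is identical over its 252 bases to that of Rps27rt, itself a member, which stood at 155 and 156 CPM in KO, against 188 and 222 CPM in wt and fell (log2 fold change -0.40 ± 0.11 (SE), adjusted p = 0.011). That call was lost with library size alone (log2 fold change -0.03) and without KO replicate 1, KO replicate 2 or wt replicate 5 (adjusted p = 0.0659, 0.0633 and 0.189 by edgeR), and with DESeq2 (0.0614).

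**Figure D2:**
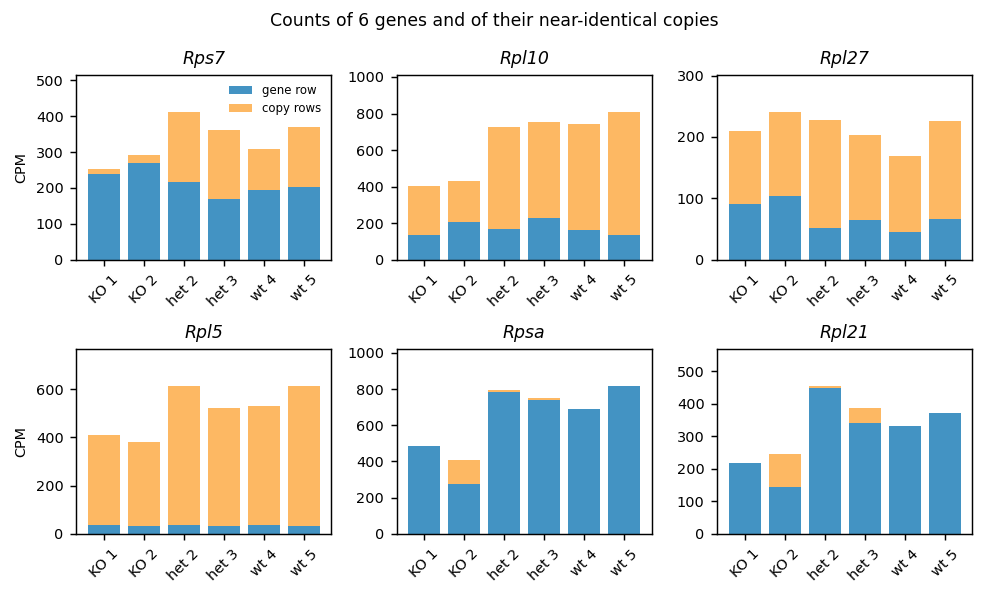
CPM of the gene's own row (blue) and of its near-identical copy rows (orange), stacked, in each of the 6 libraries for Rps7, Rpl10, Rpl27, Rpl5, Rpsa and Rpl21. The blue part of Rps7 is tallest in KO while the whole bar is lowest there, and the orange part of Rpsa and Rpl21 is large in KO replicate 2.

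With 1 floxed Dll4 allele, ribosomal protein genes tended to lie at or above their wt level, and a single member passed the test. In het against wt 1 member rose and 0 fell, where 0.128% of all genes rose and 0.0457% fell. At an unadjusted p under 0.05, edgeR gave 27 of 80 members higher and 0 lower, where 893 of the 10952 genes tested reached it in either direction. DESeq2 called the same numbers of members as edgeR after adjustment. The members' median log2 fold change was 0.18, beside 0.01 for all genes. It was 0.09 without wt replicate 4, 0.10 without het replicate 2 and 0.28 without het replicate 3. Both het libraries lay above both wt libraries in 34 members and below in 0, where 19.2% and 18.8% of all genes did so. Large-subunit genes had a median of 0.20 and small-subunit genes of 0.17. The member that rose was Rps28, a small-subunit gene at chr17:33819027-33824562, with 311 and 294 CPM in het, against 188 and 220.2 CPM in wt and no copy rows with counts (log2 fold change 0.57 ± 0.11 (SE), adjusted p = 0.0358, 1.49-fold higher). Over the alternatives its adjusted p ranged from 0.000867 to 0.833, the highest without wt replicate 4. The call was also lost without KO replicate 2 (0.0527), het replicate 2 (0.137) or wt replicate 5 (0.0805), with limma-voom (0.0661) and after thinning (0.0688). In KO against wt Rps28 fell (log2 fold change -0.37 ± 0.11 (SE), adjusted p = 0.0135), a call lost with library size alone (log2 fold change -0.0043) and without KO replicate 1 (adjusted p = 0.0685), KO replicate 2 (0.0842) or wt replicate 5 (0.211), and with DESeq2 (0.0728).

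The libraries of each of these groups were not alike. The median member stood at log2 CPM 8.58 and 8.28 in het replicates 2 and 3, against 8.07 and 8.34 in wt replicates 4 and 5, and at 7.76 and 7.79 in KO replicates 1 and 2. Het replicate 2 was above het replicate 3 in 68 of 80 members, and wt replicate 5 above wt replicate 4 in 76. Het replicate 2 exceeded both wt libraries in 66 members and het replicate 3 did so in 35. KO replicates differed by less than 1.2-fold in 75 of 80 members, het replicates in 51 and wt replicates in 52. Without het replicate 3 there were 8 rises in het against wt, and without het replicate 2 there were 0.

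Marker sums of other heart cells also differed between libraries. The summed level of 10 cardiomyocyte markers was 47.3 to 53.0 CPM in KO, 174 to 221 CPM in het and 102 to 114 CPM in wt, and that of 10 mural and fibroblast markers was 55.6 to 107.5 CPM in KO, 188 to 255 CPM in het and 78.3 to 130.4 CPM in wt. In both lists het lay above wt. The macrophage and blood, erythroid, endocardial and epicardial sums overlapped between het and wt. The sum of 8 macrophage and blood markers was 27.0 to 52.3 CPM in KO, 116 to 308 CPM in het and 62.1 to 139.9 CPM in wt. For 8 erythroid markers it was 184 to 236 CPM in KO, 118 to 379 CPM in het and 145 to 417 CPM in wt, for 6 endocardial markers 311 to 427 CPM in KO, 374 to 706 CPM in het and 442 to 465 CPM in wt, and for 6 epicardial markers 73.2 to 77.0 CPM in KO, 107 to 122 CPM in het and 107.0 to 109 CPM in wt. By edgeR 0 markers of these lists passed in het against wt. An unadjusted p under 0.05 was reached there by 6 of 7 tested cardiomyocyte markers and 2 of 7 mural and fibroblast markers. It was also reached by 1 of 6 macrophage and blood markers and 0 of the others. In KO against wt 4 cardiomyocyte, 2 mural and fibroblast and 2 macrophage and blood markers fell, and 1 mural and fibroblast marker rose. In KO against het 7, 3 and 3 of these lists fell and 0 rose. Over all genes 17.3% and 17.2% fell in these comparisons. The 1 tested epicardial marker fell in both, and 0 endocardial or erythroid markers passed. The part of these markers in the ribosomal protein results was not tested. The sum of 12 endothelial markers was 6439 to 6635 CPM in KO, 7449 to 7844 CPM in het and 7893 to 8153 CPM in wt. Of these, 5 fell and 2 rose in KO against wt, or 41.7% and 16.7%, beside 17.3% and 14.7% of all genes. In KO against het 5 fell and 3 rose, and in het against wt 0 passed.

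The gap between KO and het was the widest of the 3 comparisons, which share their libraries. In KO against het 57 members fell and 3 rose, where 17.2% of all genes fell and 13.9% rose. The median of the members was -0.58, beside -0.02 for all genes. Both KO libraries lay under both het libraries in 70 members and above in 4, where 33% and 31.4% of all genes did so. The subunits had similar medians, -0.57 for the large and -0.59 for the small. Rplp2 had 156 and 171 CPM in KO, against 464 and 388 CPM in het (log2 fold change -1.37 ± 0.11 (SE), adjusted p = 5.01e-09, 2.59-fold lower). Rpl10a fell by 1.29 on the log2 scale. Rps29, a small-subunit protein with a zinc finger, had 245 and 285 CPM in KO, against 686 and 577 CPM in het (log2 fold change -1.25 ± 0.12 (SE), adjusted p = 4.91e-07). The 3 rises were those seen against wt, Rpl27 (log2 fold change 0.71 ± 0.17 (SE), adjusted p = 0.0034), Rpl7l1 (log2 fold change 0.66 ± 0.13 (SE), adjusted p = 0.000702) and Rps7 (log2 fold change 0.40 ± 0.12 (SE), adjusted p = 0.0135). That of Rps7 did not pass without KO replicate 2 (adjusted p = 0.138) or het replicate 3 (0.226). As sums with copies, Rps7 fell (log2 fold change -0.51 ± 0.11 (SE), adjusted p = 0.00141) and Rpl27 did not pass (log2 fold change 0.07 ± 0.13 (SE), adjusted p = 0.746). Library size as the only normalization left 26 falls and 6 rises, or 32.5% and 7.5%, where 9.28% of all genes fell and 35.9% rose.

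**Figure D3:**
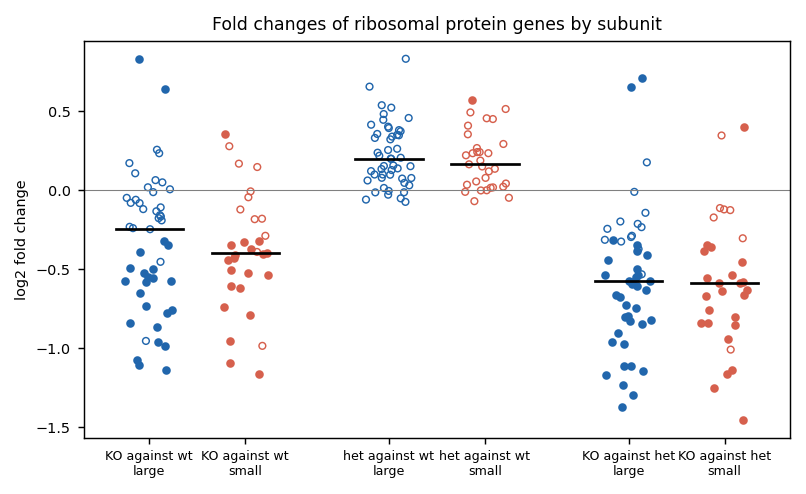
Log2 fold change of each tested member in KO against wt, het against wt and KO against het, for large-subunit (blue) and small-subunit (red) genes, with filled points for adjusted p under 0.05 and a black line at the median. Most filled points lie below 0 in the comparisons with KO, and in het against wt Rps28 is the one filled point.

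As a share of all counts, the members together took 2.53% and 2.60% in KO, 3.22% and 2.80% in het, and 2.55% and 2.88% in wt. On this scale KO overlapped with wt. After leaving out the rows of Lars2 and the structural RNAs, the shares were 2.54% and 2.60% in KO, 3.98% and 3.49% in het, and 3.11% and 3.56% in wt, and KO lay under every other library. The ratio of small-subunit to large-subunit counts averaged 0.725 ± 0.028 in KO, 0.727 ± 0.010 in het and 0.726 ± 0.005 in wt (SD, n = 2 each), so the groups differed by less than their spread. Copy rows added 0.0784 to 0.0896 counts for each member count, in KO 0.0784 and 0.0890.

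**Figure D4:**
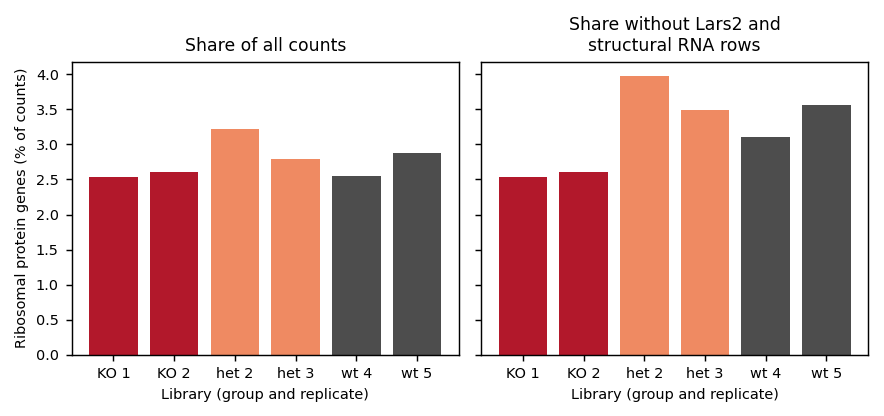
Summed expected counts of the 85 members as a percentage of all counts (left) and of the counts without Lars2 and structural RNA rows (right), 1 bar per library. On the left the KO bars (2.53% and 2.60%) lie on either side of the lower wt bar (2.55%), and on the right they are the lowest.

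The size of the change was tied to the length of the coding sequence in the comparisons with wt. Across the 80 tested members, Spearman's rho between coding length and log2 fold change was -0.54 in het against wt, -0.28 in KO against wt and -0.01 in KO against het. The 10 genes with up to 300 coding bases had a median of 0.45 in het against wt, the 47 with 301 to 600 bases 0.19, and the 23 longer ones 0.04. In KO against wt the same groups had medians of -0.12, -0.32 and -0.55, and 3, 22 and 16 of them fell, where 17.3% of all genes fell. Libraries of 1 group differed along the same axis, with rho of -0.31 for wt replicate 5 against replicate 4, -0.27 for het replicate 2 against replicate 3 and -0.01 for KO replicate 2 against replicate 1. The points share the same 6 libraries, and members with higher counts also had lower fold changes in KO against wt (rho -0.46), where other protein-coding genes gave 0.08.

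**Figure D5:**
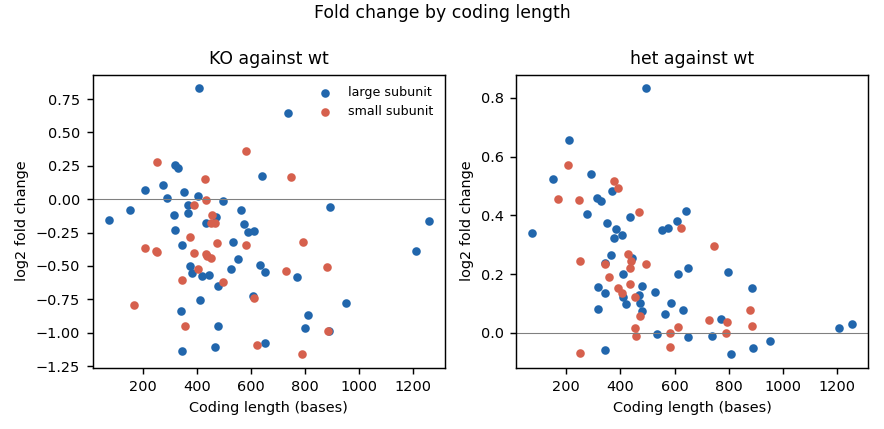
Log2 fold change of each tested member against the length of its coding sequence in bases, for KO against wt (left) and het against wt (right), with large-subunit genes in blue and small-subunit genes in red. In het against wt the shortest genes lie highest and genes over 600 bases lie near 0.

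Several members host small nucleolar RNAs (snoRNAs), which guide the modification of ribosomal RNA. Of the 14 members with a snoRNA inside an exon of a listed transcript, for most an intron-retaining form, 10 fell, with a median of -0.52 in KO against wt. Of the 15 tested with snoRNAs in introns alone 9 fell, with a median of -0.44, and of the 51 tested without any 22 fell and 3 rose, with a median of -0.24. Of the 25 other tested genes with a snoRNA in an exon, 6 rose and 4 fell, and 13 lay above and 12 below 0. Over all genes tested, 17.3% fell and 14.7% rose. Rows of snoRNAs themselves held 13.0 to 68.3 counts per library.

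Start sites were read for 65 members from RefSeq promoters (GRCm38.p6). A pyrimidine run of TOP type, searched as CTTTT or CTTTC or CTTCC or CTCTT or CTTCT or CCTTT, letters that can overlap each other, on the coding strand alone and within 20 bases of the start, was present in 40 members, or 61.5%, and in 28.6% of all genes in the table. Tested members with such a run had a median of -0.24 in KO against wt and those without -0.32. The windows from 30 bases before to 20 bases after the start are shown for members that fell furthest and for the 3 whose own row rose, with the longest pyrimidine run near the start in capitals. The runs shown are 3 to 5 bases long in Rps7, Rpl27 and Rpl7l1 and 4 to 21 bases long in the members that fell, ranges that overlap. The searched motif was present in Rplp2, Rpl7a and Rps7 and absent from Rps4x, Rpl10a, Rpl6, Rpl27 and Rpl7l1. These genes were picked by their fold change, and with copies added Rps7 fell and Rpl27 did not pass. The window of Rpl27 lies wholly before the gene start given above, and that of Rplp2 wholly after it. For these genes the motif was not read at the GENCODE start. A different start in these cells would shift the window.
Rps4x, chrX:102189372-102189421, minus strand: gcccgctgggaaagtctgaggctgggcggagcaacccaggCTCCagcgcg
Rplp2, chr7:141447621-141447670, plus strand: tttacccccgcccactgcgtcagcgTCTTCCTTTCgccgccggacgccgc
Rpl10a, chr17:28328441-28328490, plus strand: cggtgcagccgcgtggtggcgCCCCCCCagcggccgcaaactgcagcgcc
Rpl6, chr5:121204471-121204520, plus strand: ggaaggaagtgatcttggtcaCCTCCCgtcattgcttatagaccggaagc
Rpl7a, chr2:26910777-26910826, plus strand: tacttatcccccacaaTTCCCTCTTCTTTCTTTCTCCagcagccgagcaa
Rps7, chr12:28635934-28635983, minus strand: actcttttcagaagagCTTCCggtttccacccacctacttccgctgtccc
Rpl27, chr11:101442215-101442264, plus strand: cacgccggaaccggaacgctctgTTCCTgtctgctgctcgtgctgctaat
Rpl7l1, chr17:46782637-46782686, minus strand: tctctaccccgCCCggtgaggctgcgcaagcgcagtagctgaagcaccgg

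Other proteins of the ribosome carry symbols of another type. Rack1, a scaffold on the small subunit, stood at 398 and 434 CPM in KO, against 698 and 782 CPM in wt (log2 fold change -0.83 ± 0.10 (SE), adjusted p = 1.96e-06). Fau, the fusion gene of a small-subunit protein, stood at 55.7 and 76.2 CPM in KO, against 41.5 and 62.0 CPM in wt and did not pass (log2 fold change 0.37 ± 0.30 (SE), adjusted p = 0.402).

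Other messengers listed for a TOP motif, those of translation factors among them, were lower in KO than in wt. Their median was -0.32 and became 0.04 with library size alone. Of 16 listed, 9 fell and 0 rose, or 56.2% and 0%, beside 17.3% and 14.7% of all genes. With library size alone 6 fell and 5 rose, or 37.5% and 31.2%, beside 9.44% and 35.4% of all genes. Pabpc1, the poly(A)-binding protein, stood at 263 and 267 CPM in KO, against 829 and 926 CPM in wt (log2 fold change -1.73 ± 0.09 (SE), adjusted p = 1.54e-11). Tpt1, a growth-related factor, fell by 1.17 on the log2 scale, and the elongation factor Eef1a1 stood at 2438 and 2519 CPM in KO, against 4126 and 5278 CPM in wt (log2 fold change -0.92 ± 0.10 (SE), adjusted p = 8.80e-07). Eif3f, a subunit of an initiation factor, had 104 and 104 CPM in KO, against 199 and 209 CPM in wt (log2 fold change -0.96 ± 0.11 (SE), adjusted p = 9.38e-07). In het against wt 0 of the 16 passed by edgeR, and 0 had an unadjusted p under 0.05.

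Ribosome assembly factors went the other way from the proteins they assemble. Of 28 tested, 15 rose and 1 fell in KO against wt, or 53.6% and 3.57%, beside 14.7% and 17.3% of all genes. Their median was 0.47. With library size alone 26 rose and 0 fell, where 35.4% of all genes rose and 9.44% fell. Ncl (nucleolin) stood at 775 and 783 CPM in KO, against 468 and 435 CPM in wt (log2 fold change 0.78 ± 0.09 (SE), adjusted p = 1.20e-06). Bop1, needed for large-subunit maturation, stood at 109 and 128 CPM in KO, against 60.8 and 53.8 CPM in wt (log2 fold change 1.04 ± 0.15 (SE), adjusted p = 1.75e-05). Tsr1, which acts in small-subunit maturation, had 86.2 and 89.1 CPM in KO, against 38.5 and 50.6 CPM in wt (log2 fold change 0.99 ± 0.17 (SE), adjusted p = 8.98e-05), and Lsg1, a GTPase that releases an export factor, had 64.4 and 63.8 CPM in KO, against 32.1 and 31.0 CPM in wt (log2 fold change 1.02 ± 0.18 (SE), adjusted p = 0.000159). Of 12 genes of RNA polymerase I, which makes ribosomal RNA, and its factors, 3 rose and 0 fell. The rises made up 25%, beside 14.7% of all genes, and with library size alone 41.7%, beside 35.4%. The 3 were Polr1b (log2 fold change 0.85), Polr1a (0.73) and the initiation factor Rrn3 (0.49). Polr1b did not pass without wt replicate 4 (adjusted p = 0.0563), Polr1a without KO replicate 1 (0.206) or wt replicate 5 (0.176), and Rrn3 without any 1 of the KO and wt libraries (0.0599 to 0.211). With DESeq2 neither Polr1a (adjusted p = 0.0964) nor Rrn3 (0.143) passed, and Rrn3 did not pass after thinning to the smallest library total (0.14 by edgeR).

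Mitochondrial ribosomal proteins, which serve a separate ribosome, had a median of -0.08 in KO against wt. Of 77 tested, 1 rose and 2 fell, or 1.3% and 2.6%, beside 14.7% and 17.3% of all genes. Library size alone gave a median of 0.28, beside 0.35 for all genes. Under that scaling 21 rose and 0 fell, or 27.3% and 0%, beside 35.4% and 9.44% of all genes. Of 17 genes around mTORC1 and TOP control, 2 rose and 3 fell, or 11.8% and 17.6%, near the 14.7% and 17.3% of all genes. With library size alone 7 rose and 3 fell, or 41.2% and 17.6%, where 35.4% and 9.44% of all genes did so. Eif4ebp2, a repressor of cap-dependent initiation, stood at 24.8 and 25.4 CPM in KO, against 92.5 and 81.6 CPM in wt (log2 fold change -1.80 ± 0.16 (SE), adjusted p = 2.74e-08). Ddit4, an inhibitor of mTORC1, stood at 8.31 and 4.75 CPM in KO, against 46.7 and 38.0 CPM in wt (log2 fold change -2.67 ± 0.27 (SE), adjusted p = 1.95e-07). Larp1, the TOP-binding protein, fell (log2 fold change -0.66, adjusted p = 0.000177), and the cap-binding protein Eif4e rose (log2 fold change 0.39, adjusted p = 0.0107), though not without KO replicate 2 (adjusted p = 0.113) or wt replicate 4 (0.0989). Of 8 genes of the Mdm2 checkpoint, to which free Rpl5 and Rpl11 report, 1 fell and 0 rose in KO against wt. The fall made up 12.5%, beside 17.3% of all genes, and the median was 0.03. It was that of Zmat3, at 7.01 and 10.3 CPM in KO, against 36.4 and 26.6 CPM in wt (log2 fold change -1.89 ± 0.28 (SE), adjusted p = 2.10e-05). In KO against het 2 of the 8 rose and 2 fell, or 25% each, beside 13.9% and 17.2% of all genes. Mdm2, Cdkn1a and Ccng1 did not pass in KO against wt.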

How the data were processed

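The authors deposited a table of expected counts, reads per gene as RSEM estimates them, with 1 column per library. The submitters' processing notes name CASAVA, cutadapt, RSEM and build GRCm38, with no versions. Per the series' design text and the labels' protocols, cDNA was amplified with SMART-Seq v4 and libraries were made with Nextera XT. Strand is not given in the sources used here, so overlapping antisense reads may be counted. GENCODE M21 (GRCm38) gave symbols for 97.9% of identifiers, and RefSeq gave promoters.

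Expected counts were rounded. In R 4.3.3, edgeR 4.0.16 (TMM, filterByExpr with a minimum count of 10, robust quasi-likelihood fit, two-sided tests) fitted all 6 libraries, leaving 3 residual degrees of freedom. Every adjusted p is Benjamini-Hochberg over all tested genes, from this edgeR fit, or its refit under the setting named, unless another tool is named. Copies were found with BLAST 2.17.0. DESeq2 1.42.0 and limma 3.58.1 were alternatives. On simulated counts with 200 of 10952 genes changed by a log2 of 1, in KO against wt, 129 were recovered, with 24 false calls. False calls thus made up a larger share of the calls than the cutoff on adjusted p aims at. In the data 3509 genes passed in KO against wt, so the simulation does not give the share of false calls there. Members and gene lists were chosen with earlier results of these data known. Named genes were the 4 markers, the called members with the largest changes, those nearest to 0, paralogs and genes with known roles, and up to 4 of each other list by adjusted p; exceptions are said, and some genes are not reported here. Replicates differed by more than counting noise (mean chi-square per gene 3.08 to 5.43), so none was counted as a duplicate.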

Additional observations from a re-analysis of the deposited data

How the results depend on the processing

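With 2 libraries per group and totals from 1537908 counts, small changes could not be detected, and the labels give no batch. No paired analysis was possible because the groups share only replicate number 2, in KO and het. Over the alternatives, 15 of the 41 members that fell in KO against wt fell in every setting, and 25 in every setting other than library size alone. With library size alone, KO against wt gave 15 falls, 16 rises and a median log2 fold change of 0.0070, reversed in sign, and KO against het gave 26 falls, 6 rises and a median of -0.20. That setting leaves library makeup uncorrected, and the median of all genes moved to 0.35 and 0.36. Of all genes, 9.44% and 9.28% fell and 35.4% and 35.9% rose in these comparisons. With near-identical copies added, 1 rise was left in each of the KO comparisons. Rises of het over wt numbered 11 with no filter on low counts, 0 with limma-voom and 0 after thinning to the smallest total.

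Leaving out 1 library, the falls in KO against wt ranged from 26 (without wt replicate 5) to 44 and the rises from 1 (without wt replicate 4) to 3, and the rises in het against wt from 0 to 8 (without het replicate 3). A lone library was taken to vary like the other groups. The members' share of counts was 2.67% in KO with named pseudogene rows, 2.78% in KO and 2.96% in wt with all copies, and 3.73% in het and 3.34% in wt without Lars2 and structural RNA rows.

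Log2 fold changes in KO against wt changed sign for Rpl10 (-0.90 with named or all copies), Rps7 (-0.31 with copies, and -0.51 in KO against het) and Rpl37 (-0.0070 with copies, -0.0049 with TMM from other protein-coding genes). With library size alone the values were 0.19 for Rps27a, 0.35 for Rpl12, 0.25 for Rpl22l1, 0.36 for Rps19, 0.30 for Rpl5, 0.045 for Rpl11 and 0.28 for Rpl39. Near-0 genes also turned positive: Rpl12 with RLE factors (0.00096), no filter (0.044) and limma-voom (0.10), Rps19 with RLE factors (0.0061), no filter (0.048), DESeq2 (0.025) and limma-voom (0.019), and Rpl22l1 (0.0013) and Rpl5 (0.23) after thinning. Without 1 library, values ranged from -0.15 to 0.45 for Rpl10, -0.42 to 0.51 for Rpl12, -0.23 to 0.077 for Rpl22l1, -0.14 to 0.19 for Rps19, -0.088 to 0.15 for Rpl37, -0.16 to 0.040 for Rpl5 and -0.26 to 0.16 for Rpl39. Apart from the changes that copies make by construction, the cause was not tested. The alternatives that add near-identical copies or take TMM from other protein-coding genes were chosen after seeing the data.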
